A study of Homo sapiens with 24 samples.

Results

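The features described here are the nuclear genes of methionine tRNA in HEK293, a cell line long established from human embryonic kidney. They were measured by small RNA sequencing and by ATAC-seq, which uses a transposase to cut accessible DNA. The genes were taken as the rows of type tRNA outside the mitochondrial chromosome whose first deposited name began with tRNA-iMet (initiator) or tRNA-Met (elongator). This gave 20 genes of 175946 annotated non-coding features, 9 initiator and 11 elongator. The same rows were followed through the ATAC table, which gives a window on each feature. All cells carried the genotype given as Wild Type and differed in the protein they overexpressed. The control group overexpressed eGFP (GFP below), and the other groups overexpressed LMNA, LMNB1 or LMNB2, the genes of the A-type lamins and of the 2 B-type lamins, intermediate filament proteins of the lamina that underlies the nuclear membrane. Each of the 4 groups had 3 libraries per assay, 24 in all, and cells for small RNA were collected separately from those for ATAC-seq. The vector, its promoter, the time after its delivery and the origin of the replicates are not given in the sources used here. The p-values therefore measure only the spread between these libraries, which may be technical. Every contrast of a lamin with GFP uses the same 3 GFP libraries, so the contrasts are not independent of each other.

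Cells use separate tRNAs for the methionine that starts a protein and for methionine inside it. The initiator tRNA is delivered to the small ribosomal subunit by eIF2 and pairs with the start codon, whereas the elongator tRNA is delivered by eEF1A to AUG codons within the reading frame. Both carry the same anticodon and are charged by the same methionyl-tRNA synthetase, and features of the tRNA body keep the initiator out of elongation. Both kinds of gene are transcribed by RNA polymerase III from promoter boxes inside the gene, and the genome holds several copies of each.

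The copies lay on few chromosomes. On chromosome 6 there were 7 initiator and 8 elongator genes, and 14 of these 15 fell within 2.67 Mb, from 26286501 to 28953362 (GRCh38, counted from 1). The other initiator genes were TRX-CAT1-1 on chromosome 1 (153671225 to 153671346) and TRX-CAT1-8 on chromosome 17 (82494696 to 82494817). The other elongator genes were TRM-CAT2-1 (71426468 to 71426590) and TRM-CAT6-1 on chromosome 16 and TRM-CAT1-1 on chromosome 8. TRM-CAT7-1, on chromosome 6 from 57842189 to 57842311, lay apart from the chromosome 6 group. Of the 20 positions, 19 matched a RefSeq gene of GRCh38.p14, whose symbols are used here because the deposited names give several copies the same label. The unmatched gene is called by its deposited name, tRNA-iMet-CAT-2-1 (chromosome 6, 27777860 to 27777981). Each matched feature extended 25 bp beyond the RefSeq gene on both sides. That made features of 122 bp for initiator and 123 bp for elongator genes, on RefSeq genes of 72 and 73 bp.

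The initiator genes were nearly uniform in sequence and the elongator genes were not. By the RNA sequence identifiers in the table, 8 of the 9 initiator genes, TRX-CAT1-1 to TRX-CAT1-8, shared 1 mature sequence, and tRNA-iMet-CAT-2-1 had its own. The 11 elongator genes held 7 sequences, of which the TRM-CAT4 sequence had 3 copies and the TRM-CAT3 and TRM-CAT5 sequences had 2 copies each. How reads that match several copies were counted is not given in the sources used here, so copies of 1 sequence may not be independent measurements. In addition, 11 of the 20 features were overlapped by another annotated feature, for example TRM-CAT3-1 by LINC01556, TRM-CAT2-1 by LINC02136 and TRX-CAT1-8 by lnc-NARF-2. The use of strand in counting is not stated, and reads of overlapping features cannot be told apart.

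Total small RNA counts were 132.5 to 195.1 M per library, of which the 20 genes held 7544 to 32597 counts. ATAC windows totalled 156.0 to 290.2 M counts, of which these genes' windows held 10827 to 19899. The labels were checked on non-coding features over or beside the overexpressed genes. In small RNA, MIR7108, at LMNB2, had 18.6 CPM (counts scaled to a common library size) in LMNB2 and 0.0123 CPM in GFP, and LMNB1-DT, at LMNB1, had 18.2 CPM in LMNB1 and 0.0812 CPM in GFP. ATAC windows at the overexpressed genes held 4475 CPM or more in the matching group and at most 11.1 CPM in GFP. All these values are group means. By edgeR's quasi-likelihood test the ATAC adjusted p was 0.00181 at LMNB1 and 0.0038 at LMNA. At LMNB2 it was 0.474, so the MIR7108 window was not called. The LMNA label was checked in this way in ATAC-seq but not in small RNA. The cell line itself was not checked against marker genes, because the features are non-coding.

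Initiator genes carried more small RNA counts than elongator genes. Levels are given as CPM per kb, that is CPM on library sizes scaled by edgeR's TMM method, divided by the feature's length. The mean over the 12 libraries ranged from 60.9 to 170.0 CPM per kb among the initiator genes, with a median of 70.1. Among the elongator genes it ranged from 0.339 to 48.9, with a median of 8.87. The 475 other nuclear tRNA features with an isotype in their name had a median of 34.7 CPM per kb, between the medians of the initiator and elongator genes. The median initiator gene lay above the median elongator gene in 12 of 12 libraries. The ranges touched in single libraries: the lowest initiator gene exceeded the highest elongator gene in 7 of the 12.

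**Figure D1:**
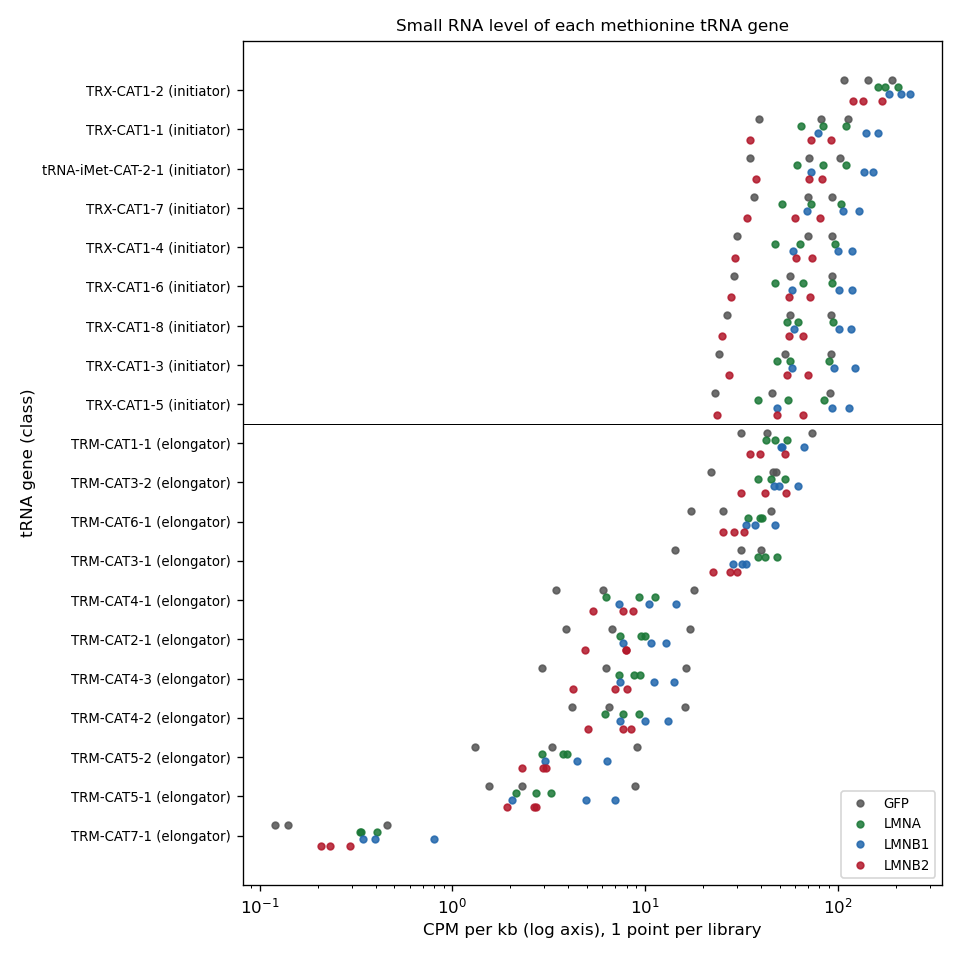
Small RNA level of the 20 genes in CPM per kb on a log axis, 1 point per library, coloured by the overexpressed protein, initiator genes above the line and elongator genes under it, each ordered by the mean of 12 libraries. Initiator genes other than TRX-CAT1-2 lie close together, whereas elongator genes fall into steps from TRM-CAT1-1 (mean 48.9) to TRM-CAT7-1 (mean 0.339).

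TRX-CAT1-2 (chromosome 6, 26286501 to 26286622), overlapped by the lncRNA lnc-HIST1H2BI-2, was the highest of all 20 genes in every one of the 12 small RNA libraries. GFP replicates 1 to 3 had 191, 108 and 144 CPM per kb, and LMNA replicates 161, 176 and 205. In LMNB1 it had 211, 184 and 237, and in LMNB2 134, 120.3 and 168. The range of GFP held all 3 LMNB2 values and 2 of the 3 LMNA values, and the LMNB1 libraries lay above those of LMNB2. Next came TRX-CAT1-1, with a mean of 89.2, and tRNA-iMet-CAT-2-1, with 84.5, which exchanged places in 2 of the 12 libraries. The other 6 initiator genes had means of 60.9 to 75.5. Of these, TRX-CAT1-4, TRX-CAT1-6, TRX-CAT1-8 and TRX-CAT1-3 differed between neighbours in the order by at most 1.03 times and changed order between libraries.

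Copies of 1 elongator sequence differed by at most 1.39 times in mean small RNA level. The different elongator sequences spanned a wider range, and some of them had similar levels. TRM-CAT1-1 was highest on average, with 42.7, 31.3 and 73.2 CPM per kb in the GFP libraries and 47.2, 42.2 and 54.5 in those of LMNA. LMNB1 had 50.3, 51.4 and 66.9, and LMNB2 39.2, 35.1 and 53.1. Every group overlapped every other, and GFP alone held both the lowest and the highest library. The TRM-CAT3 copies had means of 44.7 (TRM-CAT3-2) and 32.3 (TRM-CAT3-1), and TRM-CAT6-1 lay between them at 33.8. TRM-CAT1-1 exceeded TRM-CAT3-2 in only 9 of 12 libraries, and TRM-CAT6-1 exceeded TRM-CAT3-1 in 8 of 12, so these neighbours were not separated. A step of 3.58 times followed, present in all 12 libraries, down to the TRM-CAT4 copies, with means of 8.47 to 9.0, and TRM-CAT2-1, with 8.87. A further step of 2.19 times, again in all 12 libraries, led to the TRM-CAT5 copies, with 3.86 and 3.50 CPM per kb. TRM-CAT7-1 was lowest, with a mean of 0.339 CPM per kb from 2 to 17 counts per library. It was the only gene of the 20 left out by the filter on low counts, in both assays, so 9 of 9 initiator and 10 of 11 elongator genes were tested.

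The initiator level relative to the elongator level differed more between libraries of a group than between groups. It was taken per library as the mean log2 CPM of the 9 initiator genes minus that of the 11 elongator genes. The GFP libraries gave 3.14, 2.92 and 2.63, and the LMNA libraries 2.39, 3.11 and 3.38. The LMNB1 libraries gave 3.37, 2.96 and 3.17, and the LMNB2 libraries 2.93, 2.46 and 3.14. All 12 values were above 0, and the ranges of the 4 groups overlapped. Group means (± SD, n = 3) were 2.90 ± 0.26 for GFP. They were 2.96 ± 0.51 with LMNA, 3.17 ± 0.20 with LMNB1 and 2.84 ± 0.35 with LMNB2. The differences from GFP, 0.06, 0.27 and −0.06, were smaller than the pooled SD within groups, 0.35. As a ratio of summed counts, initiator genes had 2.50 to 4.96 times the counts of elongator genes. Of the 9 initiator genes, 8 share 1 sequence. Reads that match several copies may enter this sum more than once, so it may not be a ratio of RNA amounts.

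**Figure D2:**
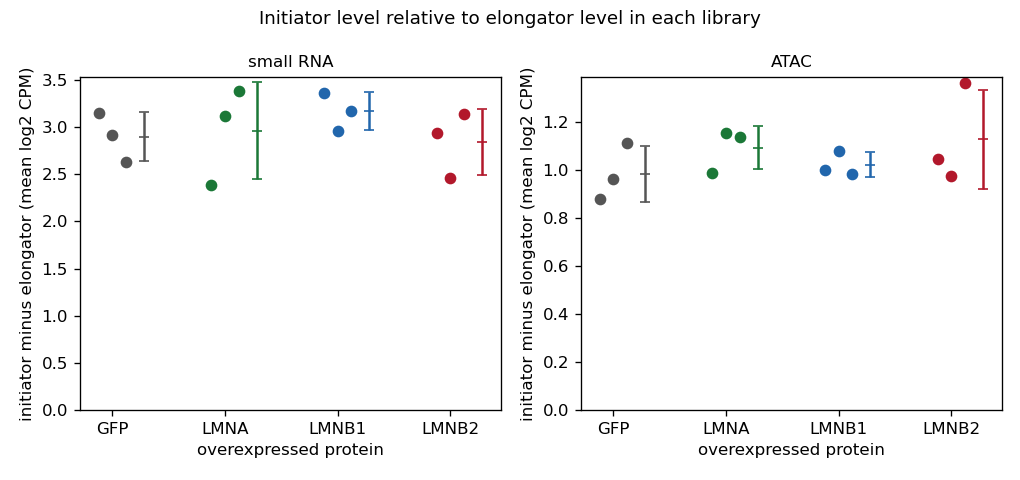
Mean log2 CPM of the initiator genes minus that of the elongator genes in each library, for small RNA (left) and ATAC windows (right), as points with the group mean ± SD (n = 3) beside them. All 12 points lie above 0 in both assays, and the lamin groups overlap GFP in small RNA.

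Group mean small RNA levels of all 9 initiator genes and of 10 of the 11 elongator genes were highest in LMNB1, but no methionine tRNA gene passed the test for LMNB1 against GFP. The 9 initiator genes had a median log2 fold change (lamin over GFP, here and below) of 0.66, from 0.51 to 0.79, and all 9 were higher in LMNB1 by TMM, by DESeq2's size factors and by total counts. The 10 tested elongator genes had a median of 0.19, with 9 higher, also under each of these scalings. Without GFP replicate 2 the initiator median was 0.33, with 9 of 9 higher, and the elongator median was −0.15. Other nuclear tRNA features had a median of 0.06 and all tested features −0.05. With edgeR's quasi-likelihood test and Benjamini-Hochberg adjustment, 0 of the 19 genes were called at an adjusted p under 0.05, where 0.0384% of all tested features were called. At an unadjusted p under 0.05 there was 1 of the 19 (5.51% of all features), and DESeq2 also called 0. In no gene were the 3 LMNB1 libraries all on one side of GFP, a separation seen in 10.1% of all tested features. In bulk libraries, fewer cells carrying an RNA and less of it per cell cannot be told apart.

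The single gene under 0.05 before adjustment was TRX-CAT1-2, whose mean was 211 ± 26.6 CPM per kb in LMNB1 and 147 ± 41.6 in GFP (SD, n = 3). This is a log2 fold change of 0.51 ± 0.24 (SE; edgeR quasi-likelihood p of 0.0438, adjusted p of 0.861). The largest initiator change was that of tRNA-iMet-CAT-2-1, at 136, 72.0 and 152 CPM per kb in LMNB1 and 70.4, 35.1 and 102 in GFP. Its log2 fold change was 0.79 ± 0.42 (edgeR adjusted p of 0.861). Its second LMNB1 library lay among the GFP libraries, so the groups overlapped. Among the elongator genes TRM-CAT3-2 had the lowest p, with 49.1, 46.3 and 62.1 CPM per kb in LMNB1 and 47.5, 22.0 and 45.9 in GFP. Its log2 fold change was 0.45 ± 0.27, with an edgeR adjusted p of 0.861.

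In LMNA no methionine tRNA gene passed the test, and the median direction of the initiator genes turned with single libraries. The initiator median log2 fold change was 0.20, with 9 of 9 higher (7 of 9 when scaled by total counts). It was −0.11 without GFP replicate 2 and −0.07 without LMNA replicate 3. The elongator median was −0.04, with 3 of 10 higher, and 0.09 without LMNA replicate 2. The median of other nuclear tRNA features was 0.14 and that of all tested features −0.05. EdgeR's quasi-likelihood test called 0 of the 19 genes, as it called 0.0% of all tested features, and DESeq2 called 0 of the 19. At an unadjusted p under 0.05 there was 1 of the 19, and 5.46% of all features. No gene's LMNA libraries were all on one side of GFP, against 9.5% of all tested features.

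That 1 gene was TRM-CAT3-1, an elongator gene on chromosome 6 from 28944550 to 28944672. It had 48.2, 38.4 and 41.7 CPM per kb in LMNA and 39.8, 14.2 and 31.6 in GFP, so that the lowest LMNA library was just under the highest GFP library. Its log2 fold change was 0.58 ± 0.27 (SE; edgeR quasi-likelihood p of 0.0475, adjusted p of 0.895). For TRX-CAT1-2, the initiator gene with the lowest p, the LMNA mean was 181 ± 22.3 CPM per kb and the log2 fold change 0.29 ± 0.24 (edgeR adjusted p of 0.921). TRM-CAT1-1, the highest elongator gene, had a log2 fold change of −0.03 ± 0.27 in LMNA (edgeR adjusted p of 0.998) and of 0.19 ± 0.27 in LMNB1 (edgeR adjusted p of 0.928).

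In LMNB2 no methionine tRNA gene passed the test, and most were lower than in GFP on average when all libraries were used. The initiator median log2 fold change was −0.20, with 0 of 9 higher, and the elongator median −0.34, with 1 of 10 higher. Scaled by total counts, 2 of 9 initiator and 3 of 10 elongator genes were higher. Without LMNB2 replicate 2 the initiator median was 0.08 and the elongator median −0.14, and without GFP replicate 2 they were −0.54 and −0.68. Other nuclear tRNA features had a median of −0.19, with 3 of 443 called, all lower. EdgeR's quasi-likelihood test called 0 of the 19 methionine genes, where it called 2.66% of all tested features (646 higher and 255 lower). At an unadjusted p under 0.05 there were 0 of the 19, against 19.9% of all features, and DESeq2 called 0. No gene's LMNB2 libraries were all on one side of GFP, against 22.3% of all tested features. TRX-CAT1-2 had a log2 fold change of −0.06 ± 0.24 (edgeR adjusted p of 0.909), and TRM-CAT1-1 one of −0.21 ± 0.27 (edgeR adjusted p of 0.713). TRX-CAT1-4, the initiator gene with the lowest p, had 60.2, 29.3 and 72.9 CPM per kb in LMNB2 and 70.1, 29.8 and 93.5 in GFP, a log2 fold change of −0.25 ± 0.46 (edgeR adjusted p of 0.809). TRM-CAT5-2, the elongator gene with the lowest p, had 2.94, 2.29 and 3.06 CPM per kb in LMNB2 and 3.28, 1.31 and 9.07 in GFP, a log2 fold change of −0.73 ± 0.58 (edgeR adjusted p of 0.517).

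These contrasts rest on GFP libraries that lay far apart. The direction of the medians turned with single libraries, except for the initiator genes in LMNB1. GFP replicate 3 was the highest of all 12 libraries for 7 of the 11 elongator genes, and GFP replicate 2 was the lowest for all 11. For TRM-CAT5-2 the GFP values differed by 6.90 times, the widest of the 20 genes. For TRX-CAT1-2 they differed by 1.77 times, the narrowest. Without GFP replicate 3, all 10 elongator genes were higher in each lamin, with medians of 0.71 in LMNA, 1.00 in LMNB1 and 0.40 in LMNB2. The initiator medians were then 0.75, 1.17 and 0.28, with 9, 9 and 8 of 9 genes higher. Without GFP replicate 2 the medians moved the other way, to −0.39, −0.15 and −0.68 for elongator genes and to −0.11, 0.33 and −0.54 for initiator genes. Without GFP replicate 3, edgeR's quasi-likelihood test called 1 gene in 1 contrast, TRM-CAT6-1 in LMNA, with a log2 fold change of 0.90 and an adjusted p of 0.0295. Over all features, the calls for LMNA against GFP numbered 0 with all libraries and 0 to 304 when 1 library was left out. TRM-CAT6-1 had 40.3, 34.2 and 39.2 CPM per kb in LMNA and 25.4, 17.2 and 45.1 in GFP. Its LMNA libraries lay between the middle and the highest GFP library.

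Between the lamins themselves, TRM-CAT3-1 and TRX-CAT1-2 had the lowest p in small RNA. The test of LMNA, LMNB1 and LMNB2 against each other does not involve GFP levels. With edgeR's quasi-likelihood test on all 12 libraries it called 0 of the 19 genes, where it called 1.93% of all tested features. At an unadjusted p under 0.05 there were 0 of the 19, against 16.0% of all features, while DESeq2 called 1. TRM-CAT3-1 was higher in LMNA (38.4 to 48.2 CPM per kb) than in LMNB1 (28.4 to 33.3) or LMNB2 (22.5 to 29.8), without overlap. Such a separation of LMNA from LMNB1 was seen in 13.6% of all tested features, and of LMNA from LMNB2 in 28.1%. Its edgeR adjusted p was 0.332. It was 0.00319 when the 9 lamin libraries were fitted alone and 0.00784 with DESeq2, which also uses those 9. TRX-CAT1-2 was higher in LMNB1 (184 to 237) than in LMNB2 (120.3 to 168), with LMNA between and overlapping both. Its edgeR adjusted p was 0.367, and 0.0154 when the 9 lamin libraries were fitted alone. With DESeq2 its adjusted p was 0.0695. Over all features, the fit of the 9 lamin libraries alone called 3887 and DESeq2 called 2129, against 654 with edgeR on all 12 libraries. Both fits of the 9 libraries leave GFP out of the estimate of the spread. The edgeR fit of the 9 also differs in filter and scaling, and DESeq2 in scaling and test. Why the calls changed was not tested.

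The copies of the main initiator sequence had similar counts, apart from TRX-CAT1-2. The following difference was chosen after the values were seen. Among the 8 copies, TRX-CAT1-5 had the fewest counts, 6 others had 1.08 to 1.45 times as many and TRX-CAT1-2 had 2.73 times as many. TRX-CAT1-5 ranged from 2.81 to 14.0 CPM over the 12 libraries. The difference TRX-CAT1-2 minus TRX-CAT1-5 was 17.8, 10.4 and 6.43 CPM for GFP and 15.0, 14.8 and 14.7 CPM for LMNA. It was 14.4, 16.5 and 14.9 CPM for LMNB1 and 10.5, 11.8 and 12.5 CPM for LMNB2. The 6 LMNA and LMNB1 libraries lay above the 3 LMNB2 libraries, and GFP spanned them all. Such separations were common: among all tested features, LMNA and LMNB2 were apart in 28.1% and LMNB1 and LMNB2 in 29.6%. Those shares are for single features, not for a difference chosen from the values. Group means (± SD, n = 3) were 11.5 ± 5.76 CPM for GFP, 14.8 ± 0.153 for LMNA, 15.3 ± 1.09 for LMNB1 and 11.6 ± 0.995 for LMNB2. TRX-CAT1-2 was overlapped by 4 annotated features, and the part of their reads in these counts was not tested.

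**Figure D3:**
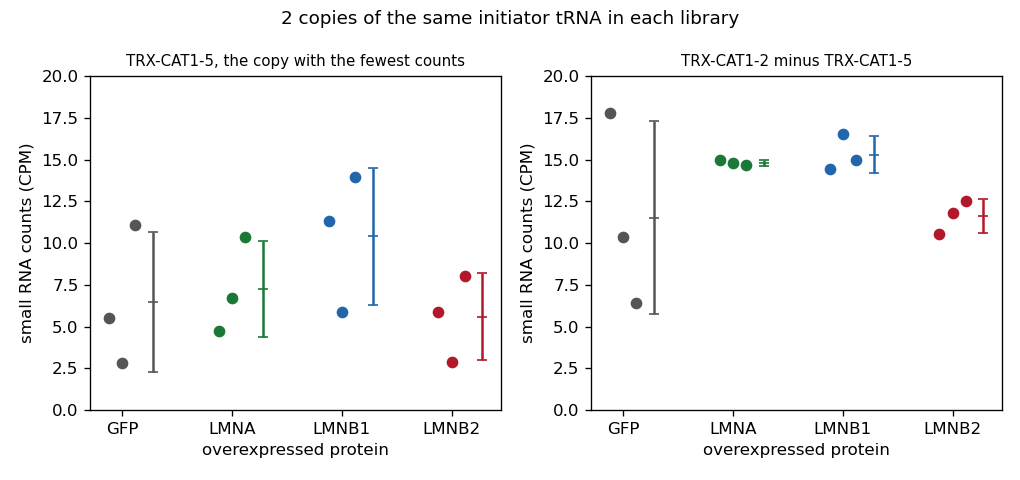
Small RNA counts in CPM of TRX-CAT1-5, the copy of the main initiator sequence with the fewest counts (left), and of TRX-CAT1-2 minus TRX-CAT1-5 (right), as points for each library with the group mean ± SD (n = 3) beside them. The difference spans 6.43 to 17.8 CPM in GFP and 14.4 to 16.5 CPM in LMNA and LMNB1 together.

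Accessibility differed widely between the copies of the main initiator sequence, and less between copies of the elongator sequences. Each ATAC window covered the feature and 125 bp more on both sides, and its level is also in CPM per kb. Initiator windows had means of 0.333 to 32.4 and a median of 7.08 CPM per kb, elongator windows 0.0689 to 22.7 with a median of 5.21, and other nuclear tRNA windows a median of 5.01. The 8 copies of the main initiator sequence spanned 11.9 times in ATAC and 2.79 times in small RNA. The copies spanned 1.77 times in ATAC for TRM-CAT4, 1.12 times for TRM-CAT3 and 1.11 times for TRM-CAT5. These sequences have only 3, 2 and 2 copies, and a range tends to grow with the number of copies. TRX-CAT1-8 had the highest window of the 20 genes in all 12 libraries. GFP libraries had 37.5, 31.4 and 26.2 CPM per kb there, and LMNA libraries 34.8, 36.4 and 29.3. LMNB1 libraries had 36.5, 33.9 and 29.4, and LMNB2 libraries 32.6, 27.2 and 33.6, so all groups overlapped. TRX-CAT1-6, TRX-CAT1-3 and TRX-CAT1-1 followed with means of 15.3, 14.8 and 13.8, neighbours that changed order in some libraries. TRX-CAT1-5 had 7.08, and TRX-CAT1-4, TRX-CAT1-7 and TRX-CAT1-2 had 3.40, 3.27 and 2.72. tRNA-iMet-CAT-2-1 had a mean of 0.333 CPM per kb.

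Among the elongator windows TRM-CAT2-1 was highest in all 12 libraries. GFP libraries had 24.0, 20.3 and 19.5 CPM per kb there, and LMNA libraries 23.6, 23.8 and 19.5. LMNB1 libraries had 25.5, 24.0 and 22.1, and LMNB2 libraries 25.5, 19.1 and 25.3. The groups overlapped throughout. TRM-CAT6-1 and TRM-CAT4-2 had means of 14.2 and 13.3 and changed order between libraries. The other TRM-CAT4 copies had 7.55 and 7.48, TRM-CAT1-1 had 5.21, and the TRM-CAT3 copies had 3.54 and 3.17. The TRM-CAT5 copies, at 0.266 and 0.239, and TRM-CAT7-1, at 0.0689, lay far below, with TRM-CAT3-1 11.9 times above TRM-CAT5-2. TRM-CAT5-2 and TRM-CAT5-1 lie in the same 98.8 kb of chromosome 6 as the 3 TRM-CAT4 copies.

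**Figure D4:**
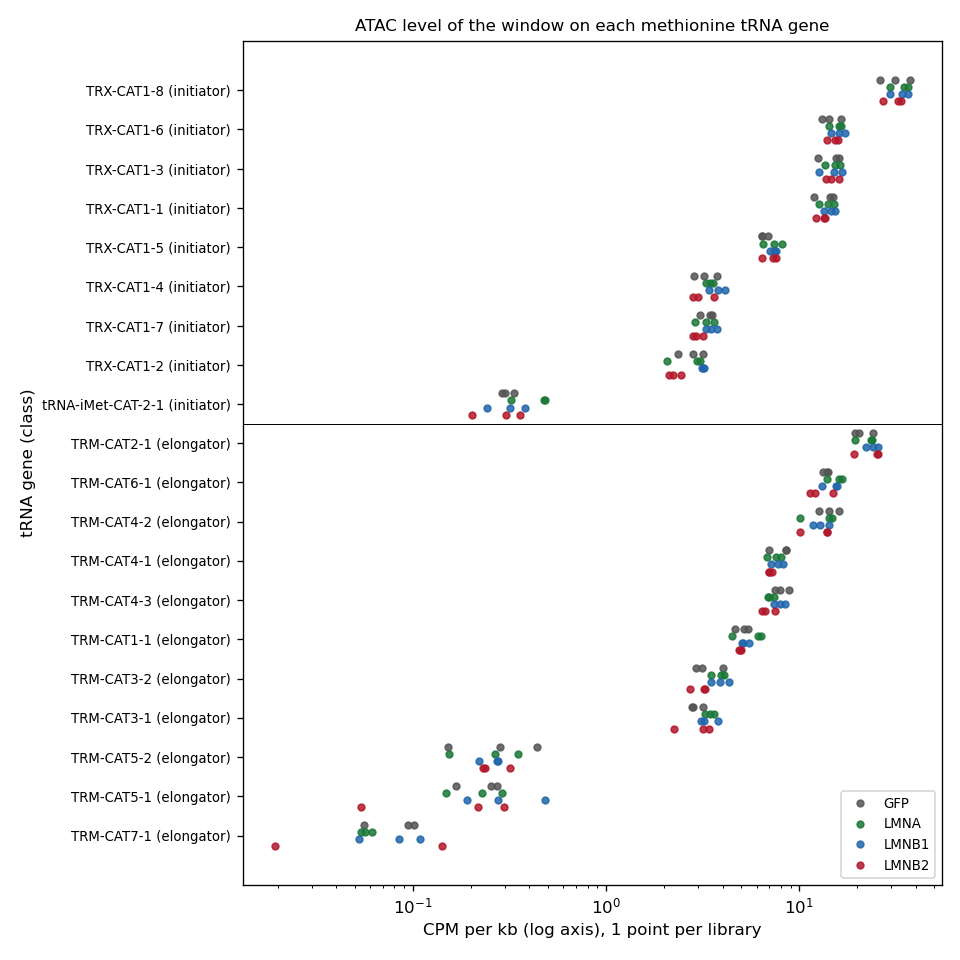
ATAC level of the window on each of the 20 genes in CPM per kb on a log axis, 1 point per library, coloured by the overexpressed protein and ordered by the mean of 12 libraries within each class. The libraries of a gene lie close together compared with the distance between genes, and the window of TRM-CAT7-1 had 0 counts in 1 LMNB2 library, which is not drawn.

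Set against the DNA around them, most windows had more counts per bp. The nearest flanks, of 500 bp, begin 350 bp outside the window. The ratio of a window's counts per bp to those of the flanks of 5000 bp was used. Averaged over 12 libraries it was 67.3 for TRM-CAT2-1, 59.4 for TRX-CAT1-1, 56.2 for TRM-CAT4-2 and 45.7 for TRX-CAT1-8. It was above 10 for 5 of 9 initiator and 6 of 11 elongator genes. It was 2.12 and 1.88 for the TRM-CAT5 copies and under 1 for tRNA-iMet-CAT-2-1 (0.507) and TRM-CAT7-1 (0.716). Against the nearest flanks of 500 bp these windows gave other ratios, 4.42 and 3.06 for the TRM-CAT5 copies, 6.42 for tRNA-iMet-CAT-2-1 and 0.585 for TRM-CAT7-1. The window of TRX-CAT1-2 was 3.42 times its flanks of 5000 bp but only 0.656 times its nearest flanks of 500 bp, so the DNA beside it had more counts per bp than the gene. The same held for TRM-CAT3-1, with 1.72 and 0.829.

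Small RNA level and accessibility gave different orders within the initiator genes. TRX-CAT1-2 was first of 9 in small RNA and 8 of 9 in ATAC, and tRNA-iMet-CAT-2-1 was 3 of 9 in small RNA and last in ATAC. TRX-CAT1-8 was first in ATAC and 7 of 9 in small RNA. Across the 9 initiator genes Spearman's rho between the mean levels was −0.60, across the 11 elongator genes 0.45 and across all 20 genes 0.19. These are descriptions over genes whose copies may share reads, with no test. TRM-CAT7-1 and the TRM-CAT5 copies were lowest among elongator genes in both assays, whereas TRM-CAT2-1 was first of 11 in ATAC and 6 of 11 in small RNA.

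**Figure D5:**
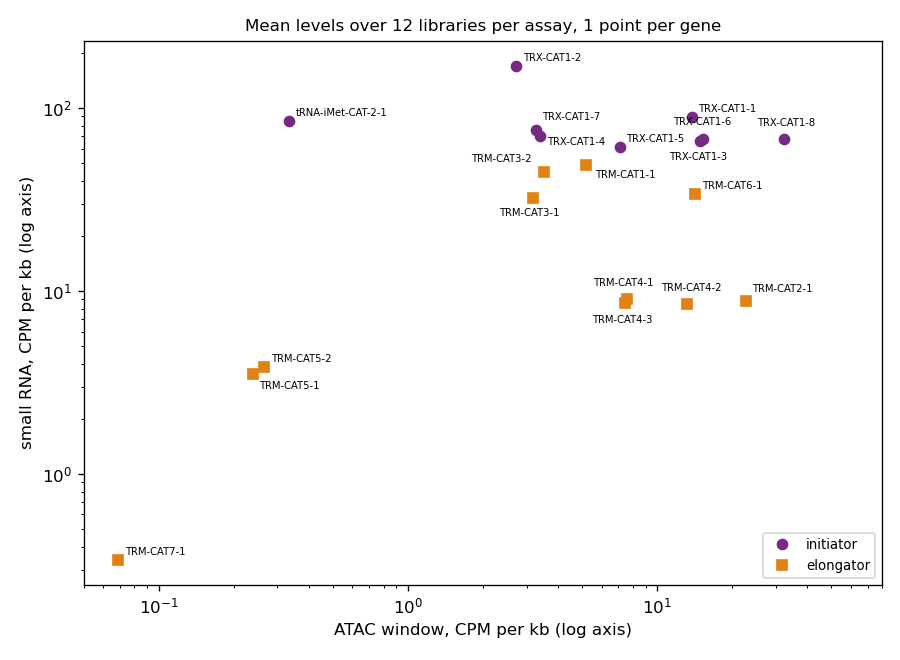
Mean small RNA level against mean ATAC window level over the 12 libraries of each assay, both in CPM per kb on log axes, 1 point per gene (circles for initiator and squares for elongator genes). Initiator genes form a band from 60.9 CPM per kb upward across ATAC levels from 0.333 to 32.4, and the lowest elongator genes are low on both axes.

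In ATAC-seq the lamin groups differed from GFP by little at these genes, and none passed the test. In LMNA the median log2 fold change was 0.08 for initiator windows, 7 of 9 of them higher, and 0.01 for elongator windows. Without GFP replicate 3 these medians were −0.02 and −0.20. In LMNB1 the medians were 0.08 and 0.07, with 9 of 9 initiator windows higher under TMM, DESeq2's size factors and total counts, but 6 of 9 without GFP replicate 3. The elongator median in LMNB1 was then −0.02. In LMNB2 the medians were −0.04 and −0.13, the first of which became 0.06 when scaled by total counts. Without GFP replicate 3 they were −0.14 and −0.26, and without GFP replicate 1 0.05 and −0.09. Medians of other nuclear tRNA windows were 0.04, 0.03 and −0.09 in the same order. EdgeR's quasi-likelihood test called 0 of the 19 windows in each contrast, where 0.000611% of all tested windows were called for LMNA, 0.00305% for LMNB1 and 0.00244% for LMNB2. Before adjustment, edgeR's p was under 0.05 for 0, 0 and 2 of the 19 windows, against 5.19%, 4.78% and 5.72% of all windows, and DESeq2 called 0 in each contrast. The standard errors of the initiator log2 fold changes in LMNA were 0.09 to 0.34 in ATAC and 0.24 to 0.56 in small RNA.

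The 2 windows under 0.05 before adjustment were both lower in LMNB2. TRM-CAT4-3 (chromosome 6, 26766209 to 26766331) had 8.82, 7.94 and 7.49 CPM per kb in GFP and 7.45, 6.62 and 6.43 in LMNB2. All 3 LMNB2 libraries lay below GFP, by a narrow margin, as did the LMNA libraries, with 7.36, 7.0 and 6.90. Its log2 fold change was −0.24 ± 0.09 (SE) in LMNB2 (edgeR quasi-likelihood p of 0.0148, adjusted p of 0.860) and −0.19 ± 0.09 in LMNA (edgeR adjusted p of 0.960). TRX-CAT1-2 had 2.36, 3.15 and 2.80 CPM per kb in GFP and 2.12, 2.42 and 2.20 in LMNB2, which overlap. Its log2 fold change in LMNB2 was −0.30 ± 0.14 (edgeR quasi-likelihood p of 0.0448, adjusted p of 0.870). In LMNB1 it had 3.16, 3.22 and 3.13 CPM per kb, above all 3 LMNB2 libraries.

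Windows whose groups did not overlap were about as common as among all windows. In LMNA there were 2 of 19 (TRM-CAT3-1 above GFP and TRM-CAT4-3 below), against 9.55% of all tested windows. In LMNB1 there was 1 of 19 (TRX-CAT1-5 above), against 8.46%, and in LMNB2 1 of 19 (TRM-CAT4-3 below), against 10.3%. TRM-CAT3-1 had 3.46, 3.63 and 3.25 CPM per kb in LMNA and 2.81, 3.18 and 2.80 in GFP, a log2 fold change of 0.23 ± 0.14 (edgeR adjusted p of 0.977). TRX-CAT1-5 had 7.36, 7.54 and 7.06 CPM per kb in LMNB1 and 6.43, 6.92 and 6.40 in GFP, a log2 fold change of 0.15 ± 0.10 (edgeR adjusted p of 0.978). In LMNA, where it was the initiator window with the lowest p, it had 7.37, 8.17 and 6.47 CPM per kb, which overlap GFP, and a log2 fold change of 0.15 ± 0.10 (edgeR adjusted p of 0.979). The lowest p in LMNB1 belonged to TRX-CAT1-4 and TRM-CAT3-2, both with a log2 fold change of 0.22 ± 0.13 (edgeR adjusted p of 0.978).

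The highest windows did not separate the groups. TRX-CAT1-8 had log2 fold changes of 0.08 ± 0.13 for LMNA, 0.07 ± 0.13 for LMNB1 and −0.03 ± 0.13 for LMNB2 (edgeR adjusted p of 0.995, 0.992 and 0.991). TRM-CAT2-1 had 0.07 ± 0.10, 0.17 ± 0.10 and 0.13 ± 0.10 (edgeR adjusted p of 0.994, 0.978 and 0.923). The initiator windows minus the elongator windows, in mean log2 CPM, were 0.99 ± 0.12 for GFP, 1.09 ± 0.09 for LMNA, 1.02 ± 0.05 for LMNB1 and 1.13 ± 0.21 for LMNB2 (SD, n = 3), and the ranges of the groups overlapped. The differences from GFP were 0.11, 0.04 and 0.14, and the pooled SD was 0.13, so that of LMNB2 was slightly larger than this spread. It depended on single libraries: the LMNB2 values were 1.05, 0.98 and 1.36, and leaving out 1 library gave differences of 0.03 to 0.22. The elongator mean includes the window of TRM-CAT7-1, which did not pass the filter and had 0 counts in LMNB2 replicate 3. By summed counts, initiator windows had 1.12 to 1.24 times the counts of elongator windows, with 1.18, 1.21 and 1.23 in the LMNB2 libraries.

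Between the lamins in ATAC-seq, edgeR's quasi-likelihood test called 0 of the 19 windows, where it called 0.0916% of all tested windows, and DESeq2 called 0. At an unadjusted p under 0.05 there were 3 of the 19, against 6.24% of all windows. They were TRX-CAT1-2 (edgeR p of 0.00488, adjusted p of 0.443), TRM-CAT6-1 (edgeR p of 0.0144, adjusted p of 0.596) and TRM-CAT3-2 (edgeR p of 0.0167, adjusted p of 0.628). TRX-CAT1-2 was highest in LMNB1, as in small RNA, and its LMNB1 and LMNB2 libraries did not overlap in either assay, a separation seen in 29.6% of all tested features in small RNA and in 11.4% of all tested windows in ATAC. TRM-CAT3-2 had 2.71 to 3.26 CPM per kb in LMNB2, below all LMNA (3.50 to 4.06) and LMNB1 (3.49 to 4.34) libraries, where 16.5% of all tested windows had LMNA and LMNB2 apart.

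The mitochondrial methionine tRNA gene MT-TM, a single gene that serves both roles in that organelle, was set beside the nuclear genes. Its small RNA level averaged 58.8 CPM per kb, close to the lowest nuclear initiator gene. Its small RNA log2 fold changes were 0.00 in LMNA, −0.39 in LMNB1 and −0.42 in LMNB2 (lowest edgeR adjusted p of 0.317). Its ATAC log2 fold changes were −0.26, −0.64 and −0.90 (lowest edgeR adjusted p of 0.753). The mitochondrial chromosome as a whole held 39.9 to 47.5% of ATAC window counts in GFP and 39.4 to 44.1% in LMNA. It held 32.8 to 34.1% in LMNB1 and 24.5 to 30.7% in LMNB2, and its part in these values was not tested.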

How the data were processed

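HEK293 small RNA and ATAC-seq libraries were analysed, 3 per group and assay, grouped by their titles. The authors deposited raw counts, a table per assay, as whole numbers. The genome build was GRCh38, per the submitters' processing notes. The aligner, the counter, the use of strand, the treatment of reads with several matches or of duplicates, and any shift of ATAC reads are not given in the sources used here. Each of these could change the values of copies and overlapping features. Deposited starts count from 0 and were raised by 1. The batch number in the labels is constant within an assay.

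Each assay was fitted over all 12 libraries with edgeR 4.0.16 (R 4.3.3): filterByExpr, TMM scaling, robust quasi-likelihood fit, prior count of 2, Benjamini-Hochberg adjustment over 33893 small RNA features or 163786 ATAC windows, calls at an adjusted p under 0.05. The code was tested on simulated data. Replicates of a group differed beyond counting noise in every pair (chi-square per feature at least 3.18). Whether the replicate numbers pair the libraries was not settled, and the main fit did not use them. Genes described with full statistics were the highest of each class per assay, any called gene, and the gene of each class with the lowest p per lamin; others were chosen after their values were seen. Alternatives were DESeq2's size factors, total counts, no filter, DESeq2 1.42.0, a replicate block, only the libraries compared, leaving out each library, and other averages over copies. The genes and lists were chosen with earlier results of these data known.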

Additional observations from a re-analysis of the deposited data

How the results depend on the processing

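The finding of no called methionine tRNA gene held in all settings and contrasts run other than 3 small RNA fits. These were LMNA without GFP replicate 3 (1 gene, range 0 to 1 over left-out libraries) and the comparison of the lamins with DESeq2 (1) or with only the libraries compared (2). Across the alternatives run the initiator minus elongator difference moved by more than the spread between replicates only for LMNA in ATAC, to 0.25 with 1 value per numbered sequence and 0.24 with 1 value per sequence identifier. Leaving out 1 library gave −0.15 to 0.35, 0.14 to 0.39 and −0.21 to 0.14 for LMNA, LMNB1 and LMNB2 in small RNA, and 0.06 to 0.17, −0.01 to 0.10 and 0.03 to 0.22 in ATAC. Of the log2 fold changes against GFP of the genes described with full statistics, 15 of 180 small RNA and 5 of 216 ATAC alternatives changed sign, and 0 were called. The setting with 1 value per sequence identifier and the restriction to ATAC members that passed the filter were chosen after seeing the data.

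Counts of all features called, given for LMNA, LMNB1, LMNB2 and the lamins among themselves, moved more, and the cause was not tested. In small RNA the counts were 0, 13, 901 and 654. Without a filter they were 111, 127, 1745 and 1667. DESeq2 gave 70, 21 and, among the lamins, 2129. With only the libraries compared LMNB1, LMNB2 and the lamins had 6, 21 and 3887, and with total counts LMNB2 (281 higher, 1 lower) and the lamins had 282 and 275. Leaving out 1 library gave 0 to 304, 9 to 36, 51 to 2101 and 117 to 2222. In ATAC the counts were 1, 5, 4 and 150. Total counts gave 184, 110, 99 and 95, DESeq2 60, 62, 116 and 1684, and only the libraries compared 0, 19, 67 and 821. Leaving out 1 library gave 0 to 222, 5 to 12, 4 to 13 and 8 to 1118. Scaling by total counts moved the median of all features to 0.11 in LMNB1 and 0.19 in LMNB2 in small RNA, and to 0.19 and 0.11 in ATAC.

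Whether the replicate number pairs the libraries was not settled. In each assay 2 of 18 same-numbered pairs correlated above 0.1. Set against each other group, a library matched the same-numbered one best in 21 of 36 cases in small RNA and in 12 of 36 in ATAC. In small RNA, replicate 3 had the highest initiator mean log2 CPM of every group, and replicate 2 the lowest elongator mean. With the replicate block no methionine tRNA gene was called, and all features called were 0, 11, 729 and 555 in small RNA and 60, 4, 4 and 553 in ATAC. At the small RNA counts of these genes the spread between libraries, not counting error, set the precision. TRM-CAT7-1, with at most 17 small RNA and 15 ATAC counts per library, was too low to compare.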
